A study of Mus musculus with 25 samples.

Results

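The ubiquitin-conjugating enzyme genes described here are the protein-coding mouse genes whose symbol starts with Ube2, followed through meiotic maturation and early cleavage. The rule, applied to the GENCODE M21 annotation by Ensembl identifier, found 37 genes. All 37 were listed among the 34228 genes of the embryo table, and 35 among the 25158 genes of the oocyte table, where Ube2dnl2 and Ube2v1 were not listed. A further 6 Ube2 symbols belong to other gene types, such as pseudogenes, and were left out by the rule. One of the 37, Ube2cbp, carries the prefix because its product binds UBE2C and is not itself a ubiquitin-conjugating enzyme.

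RNA was profiled by Smart-seq2, a method for tiny inputs that copies whole transcripts, in oocytes and embryos of C57BL/6 mice. Immature oocytes were matured in M16 medium for 16 h to metaphase II (MII), where meiosis pauses until fertilization. For embryos, eggs were inseminated in vitro for 6 h and cultured in G1 and then G2 medium. A small molecule labelled VCD, or PBS as its control, was in these media. The 6 groups were MII oocytes with VCD (n = 5) and PBS (n = 4), 2-cell embryos with VCD (n = 4) and PBS (n = 4), and morulae, the compacting embryos that precede the blastocyst, with VCD (n = 4) and PBS (n = 4). The full name and dose of VCD, the ages of the females, the number of oocytes or embryos in a library and whether libraries came from separate animals were not stated in the labels. The p-values therefore reflect only how far these libraries spread.

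Ubiquitin, a small protein that marks others for destruction, transport or repair, is attached by a relay of enzymes. An E1 enzyme activates it, an E2 or conjugating enzyme carries it on a catalytic cysteine, and an E3 ligase brings the loaded E2 to the substrate. The E2 often decides which kind of chain is built, and some E2s carry relatives of ubiquitin, such as NEDD8 or ISG15, in its place. In oocytes and early embryos the pathway is known for driving the exit from meiosis and mitosis through the anaphase-promoting complex (APC/C), an E3, and for clearing proteins that the egg stored.

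The catalytic cysteine sits in a short conserved stretch of the coding sequence. In the principal transcript of 23 of the 37 genes, a histidine, any residue and an asparagine were followed by a cysteine 8 residues after the asparagine. The middle residue was proline, the histidine-proline-asparagine signature of E2 enzymes, in 20 of these. It was not proline in the other 3, the UBE2E class. The stretch is printed for a choice of the members described below. It was read from the GENCODE M21 transcripts 5′ to 3′, from the histidine codon to the cysteine codon, which stands in capitals.
Ube2c: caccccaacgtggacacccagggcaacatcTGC
Ube2d3: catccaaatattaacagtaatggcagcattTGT
Ube2e3: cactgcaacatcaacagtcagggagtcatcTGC
Ube2l3: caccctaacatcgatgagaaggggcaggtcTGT
Ube2g1: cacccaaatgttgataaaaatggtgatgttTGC
Ube2a: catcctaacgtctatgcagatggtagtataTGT
Ube2b: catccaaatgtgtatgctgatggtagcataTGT
The capital codon is residue 114 of the protein in Ube2c, 85 in Ube2d3, 145 in Ube2e3, 86 in Ube2l3, 90 in Ube2g1 and 88 in both Ube2a and Ube2b. Ube2a and Ube2b were the closest pair shown, with 28 of 33 bases equal, against 20 of 33 for Ube2c and Ube2d3. Ube2v1 and Ube2v2, the 2 members known to lack a catalytic cysteine, held neither the signature nor the spaced cysteine. Ube2h, Ube2k and Ube2u held the signature with another spacing, and the pattern was not found in Ube2cbp, Ube2j1, Ube2j2, Ube2o, Ube2q1, Ube2q2, Ube2ql1, Ube2w and Ube2z, which says only that these letters are not there.

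Values are FPKM, fragments per length of transcript and per library size, as the authors deposited them. The steps between low values imply 15075832 to 20998296 counted reads per library, and Pearson's r between libraries of a group was 0.963 to 0.994 with no identical pair. The summed level of each set of stage markers was highest in the stage that the set is named for. The summed level of 8 oocyte genes was 7862 to 10962 FPKM in MII oocytes of either agent, 3044 to 3954 in 2-cell embryos and 30.4 to 61.1 in morulae. That of 10 genes of the 2-cell stage was 75.4 to 96.5, 1199.8 to 1785 and 2.87 to 23.8 FPKM in these stages, and that of 10 morula genes was 86.9 to 167, 38.8 to 55.3 and 252 to 403 FPKM. The 14 cumulus and granulosa cell genes summed to 11.6 to 15.4, 7.40 to 13.6 and 0.877 to 3.75 FPKM, with 2, 3 and 1 of them at a mean of 1 FPKM or more in these stages. Fshr, which defines granulosa cells, was at 0 in all morulae but not in all MII oocytes or 2-cell embryos of either agent. Other genes of this list stayed above 0 in morulae. The 7 sperm genes summed to at most 2.15 FPKM in any library, with none at a mean of 1 FPKM. Single stage markers did not all follow the sums. In morulae 6 of the 8 oocyte genes with VCD and 4 with PBS still averaged 1 FPKM or more. Of the 10 morula genes 9 did so with either agent, and Sox2 was at 0 in all PBS morulae. Genes that were not listed added nothing to these sums. For MII oocytes 9 of the 10 2-cell genes, 8 of the 10 morula genes and 13 of the 14 cumulus and granulosa cell genes were listed. Of the 7 sperm genes, 3 were listed for MII oocytes and 5 for embryos. The part of other cells in the differences between stages was not tested.

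Of the 37 genes, 25 in MII oocytes of either agent, 25 in VCD and 26 in PBS 2-cell embryos, and 30 in morulae of either agent averaged 1 FPKM or more. A few of them made up most of the Ube2 RNA. The summed level of the members was 781 ± 31.8 FPKM in VCD (SD, n = 5) and 771 ± 28.5 FPKM in PBS MII oocytes (n = 4), 963 ± 64.0 FPKM in VCD and 989 ± 35.8 FPKM in PBS 2-cell embryos, and 768 ± 61.0 FPKM in VCD and 776 ± 80.2 FPKM in PBS morulae (n = 4 each). The sums of the agents differed by less than 1 SD in each stage. Because FPKM is a share of the RNA in a library, fewer cells with a transcript and less of it per cell cannot be told apart.

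The leading member changed over the stages. Ube2d3, an E2 that works with very many E3 ligases, led in MII oocytes, with 19.4% of the sum with VCD and 20.1% with PBS, and in 2-cell embryos, with 25.9% with VCD and 24.7% with PBS. Ube2c, the E2 that starts ubiquitin chains on APC/C substrates, led in morulae, with 34.1% of the sum with VCD and 34.8% with PBS. In MII oocytes Ube2d3 was followed by Ube2t, Ube2g2, Ube2c and Ube2h. In 2-cell embryos Ube2a, Ube2g1 and Ube2w were among the 5 leading members with either agent. The share of the 5 leading members was 69.2% in VCD and 69.9% in PBS MII oocytes, 66.5% in 2-cell embryos of either agent, and 61.7% in VCD and 62.8% in PBS morulae. Levels between genes depend on the length used, and that of Ube2d3 in GENCODE M21 (all exons of all transcripts) is 24499 bases, the longest here.

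**Figure D1:**
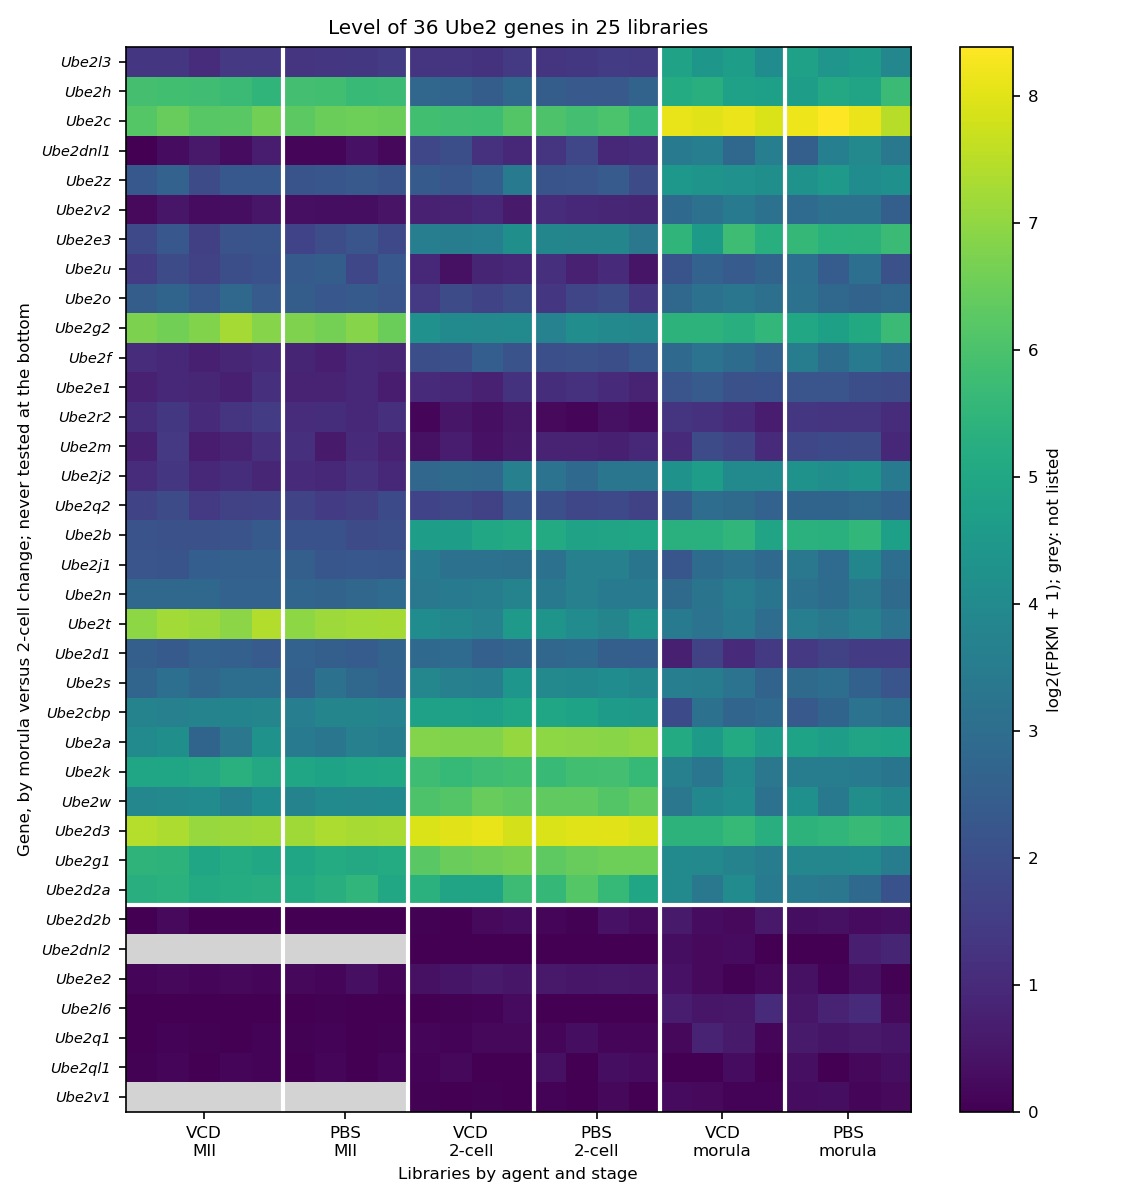
Level of 36 of the 37 Ube2 genes (rows) in each of the 25 libraries (columns, by agent and stage) as log2(FPKM + 1) in colour, with grey for genes not listed in the oocyte table. Rows run from the largest rise to the largest fall between 2-cell embryos and morulae. At the bottom are the 7 genes below the filter (1 FPKM in at least 4 libraries) in every comparison. Ube2c is brightest in morulae and Ube2d3 in 2-cell embryos of either agent.

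By group means, the stages fell in 3 patterns that both agents shared for 29 of the 30 members that met the filter in any comparison. The level was highest in MII oocytes for Ube2g2, Ube2h and Ube2t. It was highest in 2-cell embryos for 12 members and in morulae for 14 with VCD and 15 with PBS, Ube2r2 being the member that differed. The oocyte and embryo tables were normalized separately, so this order is a description, and no test was made between oocytes and embryos.

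Within the embryo table, morulae were compared with 2-cell embryos for each agent, which asks how Ube2 levels differ before and after these cleavages. Genes entered the test at 1 FPKM or more in at least 4 of the 8 libraries, and passed in limma at a Benjamini-Hochberg adjusted p below 0.05 over all genes tested. With VCD, 29 members were tested, of which 15 rose, 10 fell and 4 did not pass; with PBS, 29 were tested, of which 15 rose, 12 fell and 2 did not pass. These counts stand in a transcriptome that changed nearly throughout. Of all genes tested, 84.8% passed with VCD, 41% higher and 43.9% lower in morulae, and 87.7% passed with PBS, 42.7% higher and 45% lower. The share of members that passed is near that background and is no result about the Ube2 genes. Of the members tested, Ube2m, Ube2u and Ube2v2 with VCD and Ube2r2 with PBS entered through the morulae alone, with no 2-cell library at 1 FPKM, so that they had to be higher there to be tested; without them 12 rose with VCD and 14 with PBS. Among the 28 members tested with both agents, 14 rose with both, 10 fell with both and none passed in opposite directions. The 14 include Ube2u and Ube2v2, which with VCD entered through the morulae alone, so their rise with VCD was fixed by the filter. Over all genes tested with both, 40% were higher with both agents and 42.8% lower. The VCD and PBS stage comparisons have no library in common. The median log2 fold change of the members tested was 0.74 with VCD and 0.87 with PBS, beside -0.08 for all genes tested with either agent. The member medians include the members that had to be higher in morulae to be tested. The distance of these medians from -0.08 is therefore no result about the Ube2 genes. The members printed below library by library for both stages were chosen among those whose stages did not overlap with either agent. Their lack of overlap follows from that choice and is no result about them.

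**Figure D2:**
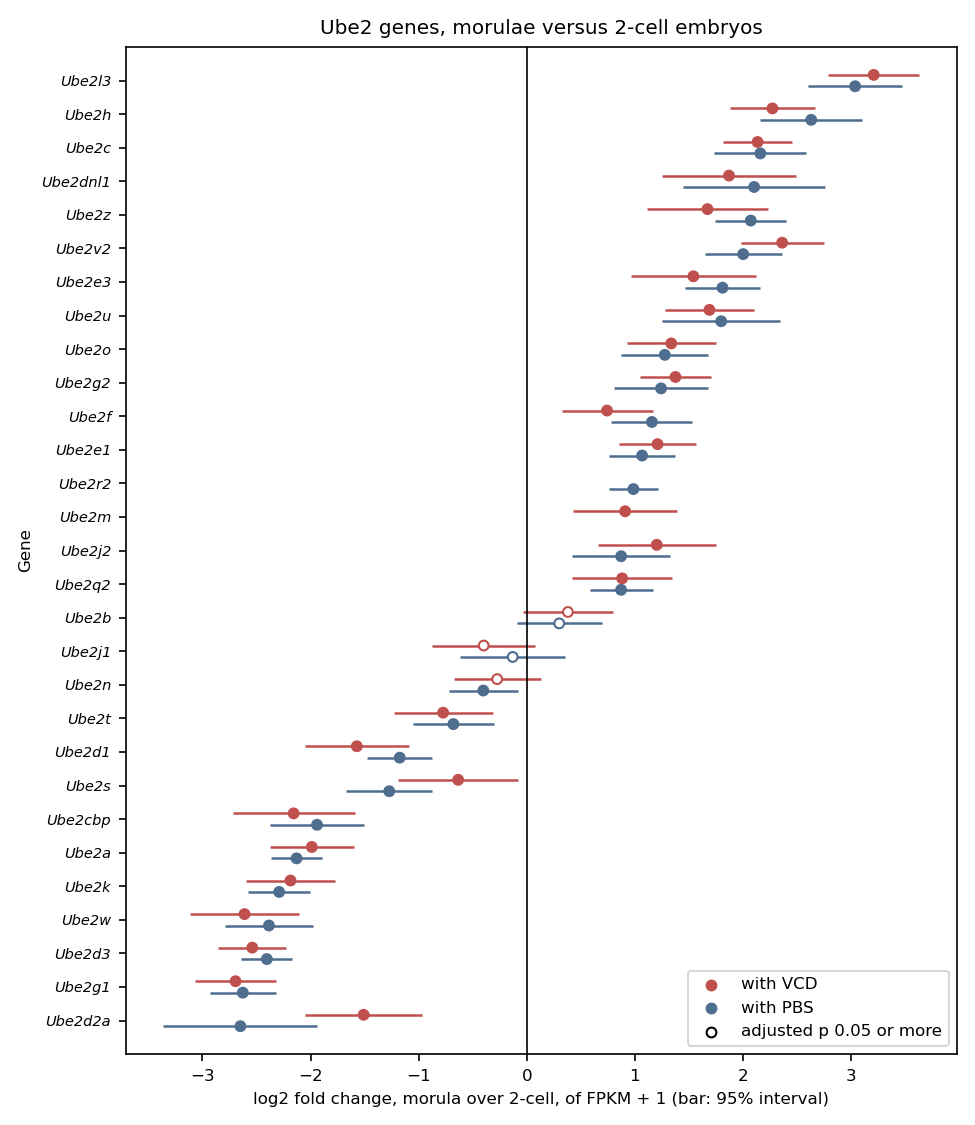
Change of the tested Ube2 genes, 1 of them not shown, from 2-cell embryos to morulae, as log2 fold change of FPKM + 1 (x axis) with its 95% interval, with VCD (upper point) and PBS (lower point); open points did not pass. The changes run from 3.04 for Ube2l3 to -2.65 for Ube2d2a with PBS, and no member that passed with both agents lies on opposite sides of 0.

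The 2 E2s of the APC/C moved in opposite directions. UBE2C places the first ubiquitins on cyclin B and securin, and UBE2S lengthens the chains through lysine 11 of ubiquitin. Ube2c had 275, 255, 279 and 238 FPKM in VCD morulae, against 56.3, 55.2, 54.5 and 70.1 FPKM in VCD 2-cell embryos. With PBS, Ube2c had 288, 333, 283 and 177 FPKM in morulae, against 64.2, 58.1, 62.9 and 48.6 FPKM in 2-cell embryos. Every morula library lay above every 2-cell library with either agent, and Ube2c rose by 2.13 on the log2 scale with VCD (SE 0.14, adjusted p = 1.24e-07) and by 2.16 with PBS (SE 0.19, adjusted p = 1.09e-06). In MII oocytes, where APC/C is held inactive, it averaged 80.1 ± 10.04 FPKM with VCD (n = 5) and 86.7 ± 7.21 FPKM with PBS (n = 4). Ube2c shares 14.1% of its 50-base words with the opposite-strand gene Tnnc2, which was listed for neither oocytes nor embryos. Strand was not stated for the counting, and the part of Tnnc2 in the rise was not tested. Ube2s fell to 8.73 ± 2.52 FPKM in VCD morulae, against 14.1 ± 4.20 FPKM in VCD 2-cell embryos (log2 fold change -0.63, SE 0.25, adjusted p = 0.0352). It averaged 5.58 ± 1.54 FPKM in PBS morulae and 14.6 ± 0.829 FPKM in PBS 2-cell embryos (log2 fold change -1.27, SE 0.18, adjusted p = 4.87e-05). With VCD, the fall of Ube2s did not pass when VCD 2-cell replicate 1 or 4 or VCD morula replicate 3 or 4 was left out, with adjusted p of 0.0658, 0.102, 0.0661 and 0.0999. With no filter on low genes it did not pass either (adjusted p = 0.0678).

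Promoters were searched in RefSeq windows of 250 bases before the annotated start (GRCm38.p6), which matched 30 of the 37 members. CCAAT, and TTTGAA, the core of the cell cycle homology region, are known from promoters of genes that peak in G2 and mitosis. CCAAT on either strand was in 9 of the 30 members, beside 33.9% of all 32851 windows, and TTTGAA on either strand in 4 of the 30, beside 15.99%. Ube2c held 6 matches of CCAAT, a number reached by 19 of all windows or 0.0578%, while the next member held 3. It also held 1 TTTGAA, and 5.55% of all windows held both motifs. The windows of Ube2c, the leading member in morulae (chr2:164769679-164769928, plus strand), and of Ube2d3, the leading member in 2-cell embryos (chr3:135437982-135438231, plus strand), are printed 5′ to 3′ with these motifs in capitals. A pair of the Ube2c matches, on opposite strands, overlaps.
Ube2c: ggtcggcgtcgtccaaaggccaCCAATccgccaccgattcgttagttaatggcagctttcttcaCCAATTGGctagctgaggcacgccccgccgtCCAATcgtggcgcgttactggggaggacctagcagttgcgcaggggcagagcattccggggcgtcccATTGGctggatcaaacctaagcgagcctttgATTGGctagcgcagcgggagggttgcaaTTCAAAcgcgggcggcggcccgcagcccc
Ube2d3: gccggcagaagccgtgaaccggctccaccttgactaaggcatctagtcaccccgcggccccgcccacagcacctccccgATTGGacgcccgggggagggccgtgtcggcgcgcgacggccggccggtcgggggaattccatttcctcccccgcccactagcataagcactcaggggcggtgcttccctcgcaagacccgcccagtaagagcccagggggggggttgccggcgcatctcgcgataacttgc
A match is a run of letters and not a tested binding site. The GC box GGGCGG was in 18 of the 30 windows of members, beside 32.7% of all windows, and TATAAA in 3, beside 12.4%.

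The broadly acting UBE2D and UBE2E classes serve many E3s and differ in their N-terminal parts. With both agents the 3 tested UBE2D genes fell and the 2 tested UBE2E genes rose, beside 42.8% of all genes lower and 40% higher with both, and Ube2dnl1, named for its likeness to UBE2D, rose. Whether the classes differed was not tested. Ube2d3 had 41.4, 41.5, 48.3 and 37.5 FPKM in VCD morulae, against 239, 259, 271 and 229 FPKM in VCD 2-cell embryos. With PBS, Ube2d3 had 41.9, 44.5, 49.6 and 45.3 FPKM in morulae, against 238, 248, 255 and 235 FPKM in 2-cell embryos. All morulae lay far below all 2-cell embryos, and the fold change was -2.54 with VCD (SE 0.14, adjusted p = 2.91e-08) and -2.40 with PBS (SE 0.11, adjusted p = 4.14e-09) on the log2 scale. Its level in MII oocytes was 151 ± 17.5 FPKM with VCD and 155 ± 7.68 FPKM with PBS. Ube2d2a had 14.8, 9.17, 15.3 and 10.3 FPKM in VCD morulae, against 39.6, 28.8, 28.8 and 53.1 FPKM in VCD 2-cell embryos. With PBS, Ube2d2a had 9.76, 9.07, 6.25 and 3.35 FPKM in morulae, against 47.4, 71.2, 48.6 and 29.5 FPKM in 2-cell embryos. The stages did not overlap, and Ube2d2a fell by 1.51 with VCD (SE 0.24, adjusted p = 0.000142) and fell by 2.65 with PBS (SE 0.32, adjusted p = 1.42e-05) on the log2 scale. Ube2d1 was lower throughout and averaged 1.37 ± 0.661 FPKM in VCD and 1.82 ± 0.184 FPKM in PBS morulae, against 5.88 ± 0.749 FPKM in VCD and 5.40 ± 0.795 FPKM in PBS 2-cell embryos.

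Ube2e3 rose to 39.4 ± 13.1 FPKM in VCD morulae, against 12.5 ± 3.09 FPKM in VCD 2-cell embryos (log2 fold change 1.54, SE 0.26, adjusted p = 0.000209). With PBS it averaged 45.1 ± 5.36 FPKM in morulae and 12.2 ± 2.08 FPKM in 2-cell embryos (1.81, SE 0.16, adjusted p = 8.69e-07). MII oocytes held less of it, 3.08 ± 0.743 FPKM with VCD and 2.88 ± 0.612 FPKM with PBS. Ube2e1 rose to 3.60 ± 0.461 FPKM in VCD and 3.27 ± 0.456 FPKM in PBS morulae, against 0.997 ± 0.276 FPKM in VCD and 1.04 ± 0.234 FPKM in PBS 2-cell embryos. It shares 15.0% of its 50-base words with the opposite-strand gene Nkiras1, which averaged 16.8 FPKM in VCD and 18.4 FPKM in PBS morulae and 35.0 FPKM in VCD and 35.2 FPKM in PBS 2-cell embryos; its part in the rise was not tested. Ube2e2 and the intronless Ube2d2b stayed below 0.6 FPKM in every library and below the filter in every comparison. Ube2d2b was listed at 0 in all PBS MII oocytes.

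Ube2l3 showed the largest rise of all members tested with either agent. UBE2L3, also called UBCH7, hands ubiquitin to E3s of the HECT and RBR kinds, which take it on a cysteine of their own; it was grouped here with its ISG15-carrying relative Ube2l6. Ube2l3 had 27.3, 20.5, 24.6 and 16.1 FPKM in VCD morulae, against 1.41, 1.40, 1.35 and 1.67 FPKM in VCD 2-cell embryos. With PBS, Ube2l3 had 26.5, 19.9, 23.8 and 13.6 FPKM in morulae, against 1.42, 1.55, 1.76 and 1.69 FPKM in 2-cell embryos. The stages were far apart, with fold changes of 3.21 with VCD (SE 0.19, adjusted p = 4.52e-08) and 3.04 with PBS (SE 0.19, adjusted p = 7.62e-08) on the log2 scale. MII oocytes resembled 2-cell embryos in level, at 1.47 ± 0.217 FPKM with VCD and 1.57 ± 0.173 FPKM with PBS. Ube2l3 shares 27.2% of its 50-base words with the opposite-strand gene Ydjc, which averaged 1.43 FPKM in VCD and 1.36 FPKM in PBS morulae and 0.201 FPKM in VCD and 0.191 FPKM in PBS 2-cell embryos; its part in the rise was not tested.

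Ube2z, whose product accepts ubiquitin and FAT10 from the E1 enzyme UBA6, had 21.3, 19.2, 17.9 and 17.03 FPKM in VCD morulae, against 4.23, 3.73, 4.62 and 9.68 FPKM in VCD 2-cell embryos. With PBS, Ube2z had 18.2, 21.5, 15.8 and 17.4 FPKM in morulae, against 3.49, 3.65, 4.27 and 2.89 FPKM in 2-cell embryos. One VCD 2-cell library stood above its group but still below every morula, and Ube2z rose by 1.67 with VCD (SE 0.25, adjusted p = 7.92e-05) and by 2.07 with PBS (SE 0.15, adjusted p = 1.78e-07) on the log2 scale. Ube2f, an E2 for NEDD8, rose to 6.63 ± 1.23 FPKM in VCD and 8.77 ± 2.00 FPKM in PBS morulae, against 3.56 ± 0.762 FPKM in VCD and 3.33 ± 0.402 FPKM in PBS 2-cell embryos. The call with VCD was lost under median-of-ratios scaling (adjusted p = 0.132). Ube2m, the other NEDD8 E2, was tested with VCD and not with PBS, where it fell below the filter. It averaged 1.80 ± 0.911 FPKM in VCD morulae and 0.436 ± 0.145 FPKM in VCD 2-cell embryos, where no library reached the filter. PBS morulae held 2.22 ± 0.882 FPKM and PBS 2-cell embryos 0.771 ± 0.107 FPKM.

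Ube2l6 was below the filter in every comparison and was listed at 0 in all VCD MII oocytes and all PBS 2-cell embryos. It reached a mean of 0.638 FPKM in VCD and 0.583 FPKM in PBS morulae.

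UBE2N builds lysine 63-linked chains, used in signalling and repair, together with a catalytically dead partner, UBE2V1 or UBE2V2. Ube2v2 had 6.22, 8.004, 9.86 and 7.72 FPKM in VCD morulae, against 0.714, 0.776, 0.894 and 0.528 FPKM in VCD 2-cell embryos. With PBS, Ube2v2 had 6.65, 8.01, 7.75 and 4.78 FPKM in morulae, against 1.07, 0.915, 0.865 and 0.832 FPKM in 2-cell embryos. With VCD it entered the test through the morulae alone. The groups were clearly separate, and the change was 2.36 with VCD (SE 0.17, adjusted p = 2.47e-07) and 2.00 with PBS (SE 0.16, adjusted p = 4.65e-07) on the log2 scale. In MII oocytes Ube2v2 stayed under the filter, at 0.295 ± 0.121 FPKM with VCD and 0.279 ± 0.056 FPKM with PBS. Its catalytic partner Ube2n averaged 8.52 ± 1.67 FPKM in VCD morulae and 10.4 ± 1.34 FPKM in VCD 2-cell embryos (log2 fold change -0.27, SE 0.18, adjusted p = 0.180). With PBS, Ube2n fell to 7.52 ± 1.24 FPKM in morulae, against 10.2 ± 0.914 FPKM in 2-cell embryos (-0.40, SE 0.14, adjusted p = 0.0211). That call was lost without PBS 2-cell replicate 2 (adjusted p = 0.0654) or PBS morula replicate 2 (adjusted p = 0.0534). Ube2v1 stayed below 0.3 FPKM in every embryo library, and 63.5% of its 50-base words also occur in other genes. Most of these words lie in the readthrough gene Gm20431, which was listed for neither oocytes nor embryos. The part of these genes in the low level was not tested.

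Of the 4 E2s tied to chromatin and DNA damage, 3 fell with both agents, beside 42.8% of all genes tested with both. UBE2A and UBE2B, the mammalian forms of yeast Rad6, ubiquitinate histone H2B and the replication clamp PCNA. Ube2a, which lies on the X chromosome, had 34.2, 22.6, 33.9 and 25.2 FPKM in VCD morulae, against 111, 111, 110.3 and 133 FPKM in VCD 2-cell embryos. With PBS, Ube2a had 27.96, 24.6, 28.6 and 27.8 FPKM in morulae, against 124, 122, 119 and 126 FPKM in 2-cell embryos. The stages did not overlap, and Ube2a fell by 1.99 with VCD (SE 0.18, adjusted p = 1.09e-06) and fell by 2.13 with PBS (SE 0.11, adjusted p = 1.15e-08) on the log2 scale. MII oocytes held 12.9 ± 5.47 FPKM with VCD and 10.3 ± 1.13 FPKM with PBS, so the 2-cell stage stood above both neighbours. Ube2b, so close to Ube2a in the printed stretch, averaged 37.7 ± 6.63 FPKM in VCD and 37.7 ± 8.57 FPKM in PBS morulae, against 28.7 ± 5.00 FPKM in VCD and 29.9 ± 2.64 FPKM in PBS 2-cell embryos. It passed with neither agent (log2 fold change 0.38 with VCD, adjusted p = 0.0810, and 0.30 with PBS, adjusted p = 0.133), and its sign turned to -0.11 with VCD and -0.21 with PBS under median-of-ratios scaling. MII oocytes held 3.48 ± 0.374 FPKM of Ube2b with VCD and 3.13 ± 0.277 FPKM with PBS. Whether Ube2a and Ube2b differed in their change was not tested.

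UBE2W adds single ubiquitins to protein N termini. Ube2w had 9.07, 14.04, 16.4 and 7.90 FPKM in VCD morulae, against 65.3, 70.2, 84.7 and 79.5 FPKM in VCD 2-cell embryos. With PBS, Ube2w had 17.4, 9.49, 16.8 and 13.5 FPKM in morulae, against 79.9, 80.0, 68.8 and 79.7 FPKM in 2-cell embryos. All morulae were below all 2-cell embryos, with fold changes of -2.61 with VCD (SE 0.23, adjusted p = 9.69e-07) and -2.38 with PBS (SE 0.18, adjusted p = 3.06e-07) on the log2 scale. MII oocytes held 14.3 ± 1.58 FPKM of Ube2w with VCD and 14.2 ± 1.17 FPKM with PBS, near the level in morulae. Ube2t, the E2 of the Fanconi anaemia pathway that repairs DNA crosslinks, was second only to Ube2d3 in MII oocytes, at 140.2 ± 19.4 FPKM with VCD and 142 ± 12.5 FPKM with PBS. The embryo table held far less Ube2t, 15.95 ± 4.17 FPKM in VCD and 16.7 ± 2.96 FPKM in PBS 2-cell embryos. It fell to 8.79 ± 1.46 FPKM in VCD and 10.01 ± 1.63 FPKM in PBS morulae (log2 fold change -0.77, adjusted p = 0.00466 with VCD, and -0.68, adjusted p = 0.00290 with PBS).

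The 4 E2s known from quality control at the endoplasmic reticulum did not move together. UBE2G1 and UBE2G2 act in the cytosol on proteins drawn out of the endoplasmic reticulum. Ube2g1 had 14.6, 14.3, 12.3 and 10.4 FPKM in VCD morulae, against 74.1, 87.7, 93.3 and 100.1 FPKM in VCD 2-cell embryos. With PBS, Ube2g1 had 13.6, 13.8, 15.1 and 10.5 FPKM in morulae, against 78.4, 85.5, 91.1 and 91.4 FPKM in 2-cell embryos. The stages did not overlap, and Ube2g1 fell by 2.69 with VCD (SE 0.17, adjusted p = 6.94e-08) and fell by 2.63 with PBS (SE 0.14, adjusted p = 1.43e-08) on the log2 scale. In MII oocytes it averaged 36.2 ± 6.08 FPKM with VCD and 32.7 ± 2.24 FPKM with PBS. Ube2g2 took the other course. It averaged 116 ± 21.6 FPKM in VCD and 102 ± 11.4 FPKM in PBS MII oocytes, and 15.7 ± 1.597 FPKM in VCD and 14.1 ± 1.69 FPKM in PBS 2-cell embryos. It rose to 42.2 ± 3.17 FPKM in VCD and 35.6 ± 10.99 FPKM in PBS morulae (log2 fold change 1.38, adjusted p = 5.39e-06 with VCD, and 1.24, adjusted p = 0.000124 with PBS).

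The membrane-anchored UBE2J1 and UBE2J2 sit in the endoplasmic reticulum itself. Ube2j2 rose to 18.2 ± 4.68 FPKM in VCD and 15.8 ± 4.10 FPKM in PBS morulae, against 7.48 ± 2.80 FPKM in VCD and 8.02 ± 1.19 FPKM in PBS 2-cell embryos. With PBS this call was lost under median-of-ratios scaling (adjusted p = 0.0904). Ube2j1 passed with neither agent and averaged 6.17 ± 1.77 FPKM in VCD and 9.04 ± 3.02 FPKM in PBS morulae, against 8.24 ± 0.961 FPKM in VCD and 9.80 ± 2.00 FPKM in PBS 2-cell embryos.

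Among the remaining members, Ube2h showed the second largest rise with PBS. UBE2H works with the CTLH complex, an E3. Ube2h had 34.4, 36.9, 26.6 and 25.4 FPKM in VCD morulae, against 5.84, 5.64, 4.59 and 6.09 FPKM in VCD 2-cell embryos. With PBS, Ube2h had 24.7, 32.4, 28.5 and 51.5 FPKM in morulae, against 4.58, 4.08, 4.05 and 5.31 FPKM in 2-cell embryos. Morulae and 2-cell embryos stood well apart, with fold changes of 2.27 with VCD (SE 0.18, adjusted p = 4.31e-07) and 2.63 with PBS (SE 0.21, adjusted p = 4.93e-07) on the log2 scale. MII oocytes held more, 53.1 ± 5.79 FPKM with VCD and 54.0 ± 3.97 FPKM with PBS, so the 2-cell stage lay below both neighbours. Ube2h shares 44.0% of its 50-base words with the noncoding gene Gm26526, which stayed below 0.9 FPKM in every library.

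UBE2K builds lysine 48-linked chains, the signal for the proteasome. Ube2k had 11.6, 8.89, 14.9 and 9.01 FPKM in VCD morulae, against 53.9, 48.6, 53.6 and 56.1 FPKM in VCD 2-cell embryos. With PBS, Ube2k had 10.7, 10.6, 10.3 and 8.63 FPKM in morulae, against 49.5, 56.9, 57.6 and 48.1 FPKM in 2-cell embryos. The stages did not overlap, and Ube2k fell by 2.19 with VCD (SE 0.18, adjusted p = 7.35e-07) and fell by 2.29 with PBS (SE 0.13, adjusted p = 2.53e-08) on the log2 scale. It averaged 32.8 ± 3.55 FPKM in VCD and 29.9 ± 1.39 FPKM in PBS MII oocytes. Ube2dnl1, a gene on the X chromosome named for its likeness to the UBE2D class, had 9.98, 10.9, 5.89 and 10.9 FPKM in VCD morulae, against 2.41, 3.04, 1.29 and 0.911 FPKM in VCD 2-cell embryos. With PBS, Ube2dnl1 had 4.81, 11.3, 14.3 and 9.29 FPKM in morulae, against 1.46, 2.45, 0.912 and 1.04 FPKM in 2-cell embryos. It rose by 1.87 with VCD (SE 0.28, adjusted p = 7.46e-05) and by 2.10 with PBS (SE 0.30, adjusted p = 4.81e-05) on the log2 scale, with no overlap of stages. Its neighbour Ube2dnl2 has the same 33 bases around the cysteine and shares 11.7% of its 50-base words with it. Ube2dnl2 was listed at 0 in every 2-cell library and reached at most 0.811 FPKM in morulae. Assignment of reads between the 2 genes was not tested.

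**Figure D3:**
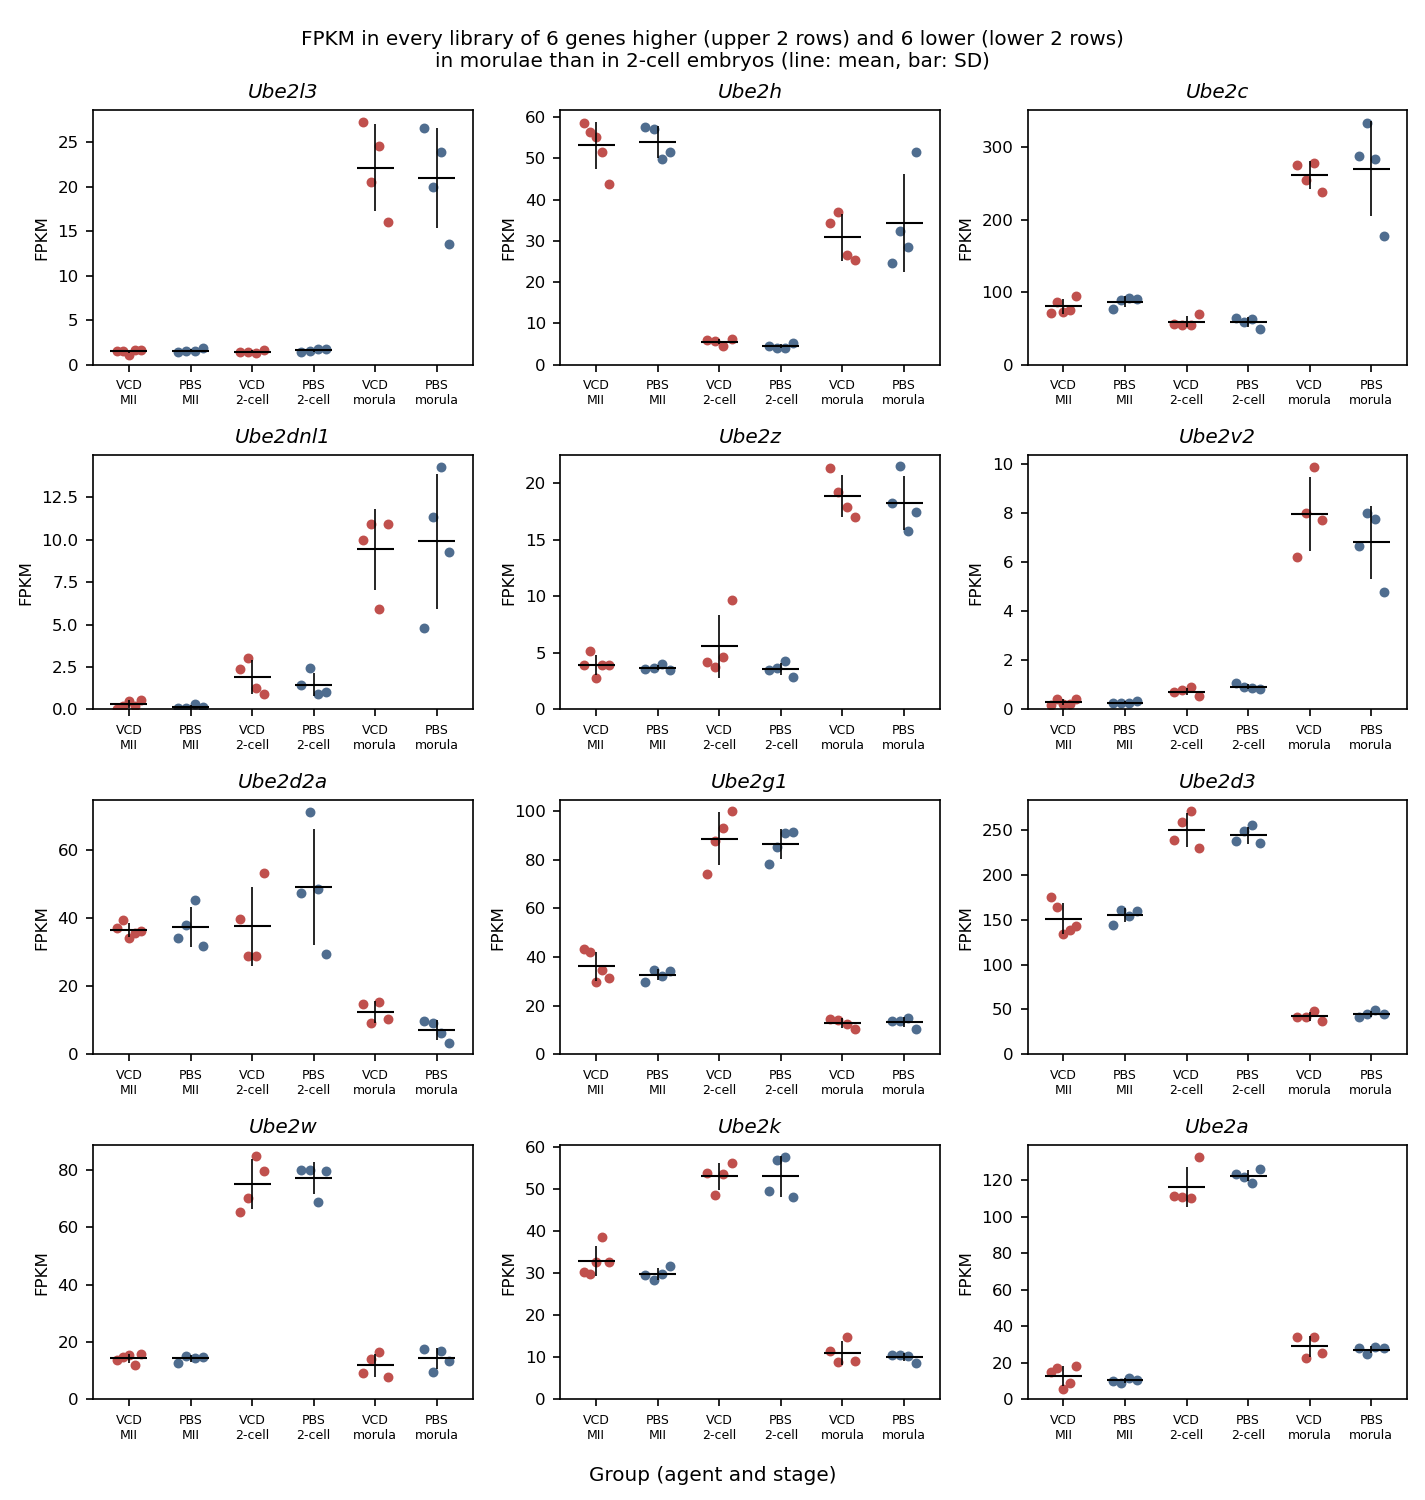
FPKM (y axis, from 0) in every library of the 6 members with the largest rise (upper 2 rows) and the 6 with the largest fall (lower 2 rows) from 2-cell embryos to morulae with PBS, by group; lines are means and bars SDs (n = 5 in VCD MII oocytes, 4 elsewhere). Only members that passed with both agents, and whose stages did not overlap with either, were drawn. The separation of morulae from 2-cell embryos was therefore fixed by this choice. Ube2h is lowest and Ube2a, Ube2g1 and Ube2w are highest in 2-cell embryos.

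Ube2u averaged 4.60 ± 0.850 FPKM in VCD and 5.56 ± 2.08 FPKM in PBS morulae, against 0.741 ± 0.288 FPKM in VCD and 0.842 ± 0.379 FPKM in PBS 2-cell embryos. With VCD it entered the test through the morulae alone. Ube2o, which joins E2 and E3 activity in 1 protein, rose to 7.56 ± 1.15 FPKM in VCD and 6.36 ± 1.05 FPKM in PBS morulae, against 2.40 ± 0.542 FPKM in VCD and 2.07 ± 0.664 FPKM in PBS 2-cell embryos. Ube2q2 rose to 5.71 ± 1.25 FPKM in VCD and 5.50 ± 0.343 FPKM in PBS morulae, against 2.65 ± 0.794 FPKM in VCD and 2.56 ± 0.398 FPKM in PBS 2-cell embryos. Ube2r2, a relative of the cell cycle E2 CDC34, was tested with PBS and not with VCD. It averaged 1.08 ± 0.394 FPKM in VCD morulae and 0.318 ± 0.159 FPKM in VCD 2-cell embryos, and 1.35 ± 0.196 FPKM in PBS morulae and 0.187 ± 0.0909 FPKM in PBS 2-cell embryos, where no library reached the filter. Ube2cbp fell to 5.65 ± 2.24 FPKM in VCD and 6.18 ± 1.77 FPKM in PBS morulae, against 27.2 ± 1.54 FPKM in VCD and 26.1 ± 3.87 FPKM in PBS 2-cell embryos. Ube2q1 and Ube2ql1 were below the filter in every comparison. Their highest group means were 0.450 FPKM in PBS morulae and 0.179 FPKM in PBS 2-cell embryos.

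Genes that work with these E2s were counted between the stages against the same background, 41% of all genes tested higher and 43.9% lower with VCD, and 42.7% higher and 45% lower with PBS, with a median of -0.08 with either agent. The counts and medians include genes that entered the test through the morulae alone or the 2-cell embryos alone. The direction of such genes was fixed by the filter. Of 8 tested E1 genes with VCD, 5 rose and 2 fell, and of 9 with PBS, 6 rose and 2 fell. Sae1, a subunit of the SUMO-activating enzyme, averaged 76.4 ± 10.8 FPKM in VCD and 72.5 ± 13.6 FPKM in PBS morulae, against 5.27 ± 1.03 FPKM in VCD and 4.91 ± 0.404 FPKM in PBS 2-cell embryos. Atg7, the E1 of the autophagy conjugation systems, rose by 3.57 with VCD and by 3.70 with PBS on the log2 scale. Atg7 averaged 0.417 FPKM in VCD and 0.501 FPKM in PBS 2-cell embryos and entered the test through the morulae alone. The median log2 fold change of the E1 genes was 0.95 with VCD and 0.87 with PBS, beside the -0.08 of all genes.

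Of 12 tested genes for ubiquitin and its relatives, 9 rose with each agent, while none fell with VCD and 1 with PBS, and the medians were 1.496 with VCD and 1.48 with PBS, beside 41% of all genes higher with VCD, 42.7% higher with PBS and the median of -0.08. Sumo2, a relative of ubiquitin, and Rps27a, which encodes ubiquitin fused to a ribosomal protein, had the smallest p with VCD and rose by 4.57 and 4.82 on the log2 scale. With PBS these were Fau and Urm1, which rose by 4.44 and 3.44. Urm1 averaged 0.358 FPKM in PBS 2-cell embryos and entered the test with PBS through the morulae alone. Of 17 tested genes of APC/C with its activators and inhibitors, 11 rose with each agent, and 2 fell with VCD and 3 with PBS, where 43.9% of all genes were lower with VCD and 45% with PBS. Cdc20, the activator with which UBE2C works in mitosis, averaged 1024 ± 288 FPKM in VCD and 929 ± 197 FPKM in PBS morulae, against 75.5 ± 16.8 FPKM in VCD and 67.4 ± 10.3 FPKM in PBS 2-cell embryos. Fbxo43, which encodes EMI2, the inhibitor that holds APC/C in MII, fell by 6.80 with VCD and fell by 6.75 with PBS on the log2 scale. Fbxo43 averaged 0.413 FPKM in VCD and 0.402 FPKM in PBS morulae and entered the test through the 2-cell embryos alone.

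Of 10 tested SUMO E3s and proteases, 5 rose with each agent, and 4 fell with VCD and 5 with PBS. Pias1 fell by 3.26 with VCD and fell by 3.39 with PBS, Senp1 fell by 1.97 with VCD and Senp2 rose by 2.43 with PBS on the log2 scale. Of 12 tested E3 partners of the chromatin and DNA damage E2s, 1 rose and 5 fell with each agent, with medians of -0.42 with VCD and -0.27 with PBS. The share that fell is near the 43.9% with VCD and 45% with PBS of all genes and is no result about this list. The single rise was that of Fancl, the E3 that works with UBE2T, by 2.29 with VCD and 2.35 with PBS on the log2 scale. Fancl averaged 0.300 FPKM in VCD and 0.435 FPKM in PBS 2-cell embryos. It entered the test through the morulae alone, so it had to be higher there to be tested. Uhrf1 fell by 3.71 with VCD and fell by 3.95 with PBS. Of the 8 E2 genes outside the Ube2 prefix, 3 rose with each agent, and 3 fell with VCD and 2 with PBS. Cdc34b fell by 5.79 with VCD and fell by 5.87 with PBS, Ufc1 rose by 2.07 with PBS and Birc6 rose by 1.57 with VCD on the log2 scale. Cdc34b averaged 0.1365 FPKM in VCD and 0.0718 FPKM in PBS morulae and entered the test through the 2-cell embryos alone.

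VCD was then compared with PBS within each stage, the comparison the series was designed for. No Ube2 gene passed in any stage. In MII oocytes 0 of 25 members passed in limma, beside 0.0115% of all genes tested, and 1 member had an unadjusted p below 0.05, beside 2.81% of all genes. In 2-cell embryos 0 of 26 members passed, beside 0% of all genes, and 0 members had an unadjusted p below 0.05, beside 3.44%. In morulae 0 of 30 passed, beside 0.01% of all genes, and 1 had an unadjusted p below 0.05, beside 3.12%. Limma-voom on recovered reads also called 0 members in each stage. In none of the 3 stages were the libraries of the 2 agents fully apart for any tested member, beside 1.04%, 2.16% and 2.04% of all genes tested in MII oocytes, 2-cell embryos and morulae. The 95% interval of the VCD effect was taken on FPKM + 1, so for low members the change in FPKM itself can be wider. It lay within a 2-fold change of FPKM + 1 either way for 25 of 25 members in MII oocytes. So it did for 26 of 26 in 2-cell embryos and 27 of 30 in morulae. The same held for 99.1%, 94.5% and 84.3% of all genes tested in these stages, so the members stood near the background.

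**Figure D4:**
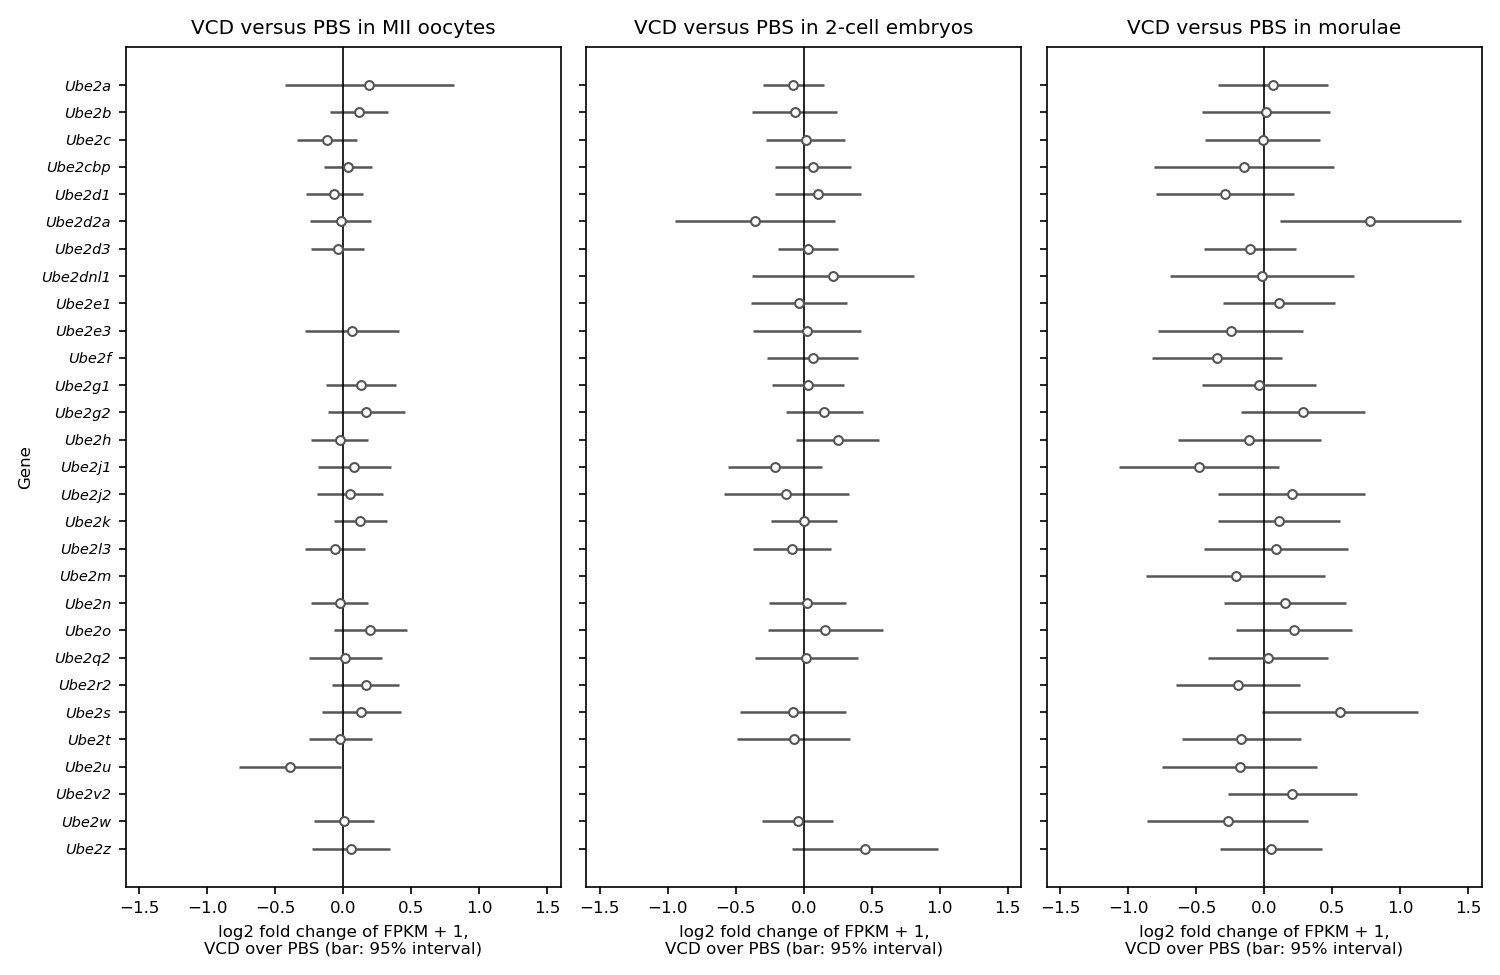
Difference between VCD and PBS for the tested Ube2 genes, 1 of them not shown, in MII oocytes, 2-cell embryos and morulae, as log2 fold change of FPKM + 1 (x axis) with its 95% interval; blank rows were below the filter. All points are open, as none passed, and the largest is Ube2d2a in morulae at 0.78.

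In MII oocytes the smallest unadjusted p was that of Ube2u, an E2 described mainly in the testis. It had 1.72, 2.81, 2.17, 3.06 and 3.34 FPKM with VCD, against 4.20, 4.50, 2.46 and 3.82 FPKM with PBS. The groups overlapped (log2 fold change -0.39, SE 0.17, limma adjusted p = 0.999). Ube2o had 4.51, 5.52, 3.92, 6.05 and 4.34 FPKM with VCD, against 4.59, 3.81, 4.23 and 3.68 FPKM with PBS (0.20, SE 0.12). Ube2r2 had 1.14, 1.55, 0.982, 1.44 and 1.73 FPKM with VCD, against 1.10, 1.12, 0.946 and 1.24 FPKM with PBS (0.16, SE 0.11). In both genes several VCD libraries lay within the PBS range, and without VCD replicate 4 the fold change of Ube2o was 0.13.

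In 2-cell embryos Ube2z and Ube2h were among the members of smallest unadjusted p, each with a limma adjusted p of 0.999. Ube2z had 4.23, 3.73, 4.62 and 9.68 FPKM with VCD, against 3.49, 3.65, 4.27 and 2.89 FPKM with PBS (0.45, SE 0.24), and VCD replicate 4 held the highest value. Without that library the fold change of Ube2z was 0.19. Ube2h had 5.84, 5.64, 4.59 and 6.09 FPKM with VCD, against 4.58, 4.08, 4.05 and 5.31 FPKM with PBS (0.25, SE 0.14), with 1 VCD library inside the PBS range.

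In morulae the smallest unadjusted p were those of Ube2d2a, Ube2s and Ube2j1. Ube2d2a had 14.8, 9.17, 15.3 and 10.3 FPKM with VCD, against 9.76, 9.07, 6.25 and 3.35 FPKM with PBS. The lowest VCD library lay below the highest PBS library, and the log2 fold change was 0.78 (SE 0.30, 95% interval 0.12 to 1.44, limma adjusted p = 1.0). Ube2s had 10.9, 10.5, 8.11 and 5.43 FPKM with VCD, against 6.52, 7.09, 5.04 and 3.66 FPKM with PBS (0.56, SE 0.26). Ube2j1 had 3.71, 6.80, 7.87 and 6.30 FPKM with VCD, against 9.15, 6.63, 13.3 and 7.14 FPKM with PBS (-0.48, SE 0.27). All 3 pairs of groups overlapped. Without PBS replicate 4 the fold change of Ube2d2a was 0.51, and that of Ube2j1 was -0.30 without PBS replicate 3 and -0.29 without VCD replicate 1.

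Whether the VCD effect differed between morulae and 2-cell embryos was tested as an interaction over the 16 embryo libraries. It passed for 0 of 30 members in limma, beside 0% of all genes, and for 0 with limma-voom on recovered reads, with 1 member at an unadjusted p below 0.05, beside 3.55% of all genes. That member was Ube2d2a, whose VCD effect was -0.36 in 2-cell embryos and 0.78 in morulae on the log2 scale, an interaction of 1.14 (SE 0.43, limma adjusted p = 0.9995). It shares libraries with the comparisons within stages, so it is no separate evidence. The interval of the interaction lay within a 2-fold change of FPKM + 1 either way for 25 of 30 members, beside 73.6% of all genes.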

How the data were processed

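Smart-seq2 libraries of MII oocytes, 2-cell embryos and morulae (25 in all) were analysed from 2 deposited tables, 1 for oocytes and 1 for embryos, each holding FPKM that the authors computed. Alignment used TopHat2 2.0.12 with Bowtie2 2.2.3, per the submitters' processing notes, whose build entry is galGal4, although the tables carry mouse Ensembl identifiers. The counting tool, its strand setting and the annotation were not stated there. FPKM is relative to a gene's length and a library's total, so a few very abundant genes can shift all others.

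Identifiers were matched to GENCODE M21 (GRCm38) for 25124 of 25158 oocyte and 34129 of 34228 embryo genes. With its exon lengths, 90.6% to 93.4% of values below 200 reads were whole within 0.01 reads, which gave the depth per library; these reads were used for depth and for limma-voom (genes with 10 reads or more), and cover counting error only, without molecular identifiers. Each comparison was fitted with limma 3.58.1 (R 4.3.3, variance trend) on log2(FPKM + 1). A gene entered when 4 or more libraries held at least 1 FPKM, and p was adjusted by Benjamini-Hochberg over all genes tested. Fold changes on this scale understate changes of low genes. The procedure was also run on simulated reads with the same dispersion for every gene, which need not match these libraries. Its outcome is not reported here.

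The members, the gene lists and the rule for printed libraries were chosen with earlier results of these data known. Every library is printed for the 6 members with the largest rise and the 6 with the largest fall with PBS that passed with both agents without overlap of stages, and for the 3 members of smallest unadjusted p in each VCD comparison. One member is counted but not reported by name here. From each of 6 lists of partner genes, the 2 of smallest unadjusted p per stage comparison are named. Alternatives were another pseudocount, filter, scaling, replicate block, limma-voom, a fit over all embryo libraries and leaving out each library. Figures were drawn with matplotlib from these values.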

Additional observations from a re-analysis of the deposited data

Results flagged for a closer look

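Of 102 sets of libraries, 1 for each group and each of the 17 genes printed library by library, 9 held a library whose gap to the nearest other exceeded Dixon's 95% critical value for the range of its group. Chance alone flags about 1 set in 20.

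In VCD 2-cell embryos replicate 4 stood above the others for 3 genes. It had 133 FPKM of Ube2a, against 110.3 to 111 FPKM in the other 3 libraries, 70.1 FPKM of Ube2c, against 54.5 to 56.3 FPKM, and 9.68 FPKM of Ube2z, against 3.73 to 4.62 FPKM. Replicate 2 of this group had 0.313 FPKM of Ube2u, against 0.829 to 0.918 FPKM. In PBS 2-cell embryos replicate 3 had 68.8 FPKM of Ube2w, against 79.7 to 80.0 FPKM.

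In VCD MII oocytes replicate 3 had 1.09 FPKM of Ube2l3, against 1.51 to 1.61 FPKM. In PBS MII oocytes replicate 1 was low for Ube2c, with 76.1 FPKM against 89.3 to 91.8 FPKM, and high for Ube2j1, with 4.80 FPKM against 3.75 to 3.84 FPKM. Replicate 4 had 0.362 FPKM of Ube2v2, against 0.247 to 0.256 FPKM.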

How the results depend on the processing

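The number of Ube2 genes that passed was within 1.5 times its reported value under each alternative run. Between the stages, 20 to 29 members passed with VCD (25 as reported) and 21 to 32 with PBS (27 as reported), the lowest with a minimum of 5 FPKM, under which fewer genes were tested. Without 1 library, 24 to 25 passed with VCD and 26 to 28 with PBS. VCD versus PBS gave 0 members in each stage, and the interaction 0, in all of them. The 12 stage genes printed library by library kept direction and call under every alternative in which they were tested. Median-of-ratios scaling moved the median of all genes between stages to -0.48 with either agent, from -0.08; under it Ube2f lost its call with VCD (adjusted p = 0.132) and Ube2j1 passed, lower in morulae, with both agents. Without a filter on low values, Ube2m, Ube2l6, Ube2q1, Ube2e2 and Ube2v1 also passed with PBS, and Ube2l6, Ube2r2, Ube2dnl2 and Ube2e2 with VCD. Limma-voom added Ube2m, Ube2q1 and Ube2e2 with PBS and, among others, Ube2l6, Ube2r2 and Ube2e2 with VCD. All those named were below the main filter of that comparison.

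The labels do not say that replicate numbers pair libraries, so the numbers were not taken as pairs. Deviations of same-numbered libraries from their group means had r from -0.325 to 0.378 over all pairs, highest in morulae. Differently numbered libraries were not compared in this way, so these values cannot show whether the numbers mark pairs. With a replicate block, 24 members passed with VCD, Ube2s being lost (adjusted p = 0.0667), 27 passed with PBS, and 0 in each VCD comparison and the interaction.

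Without its leading member the Ube2 sum was 630.0 FPKM in VCD and 616 FPKM in PBS MII oocytes, 713 and 745 FPKM in 2-cell embryos with VCD and with PBS, and 506 FPKM in VCD and 505 FPKM in PBS morulae. Low read numbers limit the 7 members below the main filter in every comparison: Ube2q1, Ube2l6 and Ube2v1 had 149, 82 and 21 recovered reads over all VCD morulae.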
